A study of Mus musculus with 6 samples.

Results

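The genes that make and load MHC class I molecules were followed in AKP MTO54 mouse tumor organoids after Folfiri chemotherapy. The 10 members were the heavy chain genes H2-K1 and H2-D1, the light chain gene B2m, the peptide transporter genes Tap1 and Tap2, the tapasin gene Tapbp, the immunoproteasome genes Psmb8, Psmb9 and Psmb10, and the regulator gene Nlrc5. They were chosen by name and found through their Ensembl gene identifiers among the 24190 genes of the count table, and all 10 had a row there. MTO54 is a single parental line of colorectal tumor organoids, established from a genetically engineered mouse, and all 6 samples carried the alterations that the label AKP stands for. Single cells were seeded in basement membrane extract in complete stem cell medium, and the medium was replaced 2 days later. The 3 Control samples received that medium alone, and the 3 Folfiri samples received it with 5FU, written in the labels as 50 μg/μl, and with SN38, the active metabolite of irinotecan, at 100 nM. The labels give 2 days of exposure. The study calls the samples of a condition biological replicates. The labels number them without saying what was separate about them, so the tests measure the spread between these samples.

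MHC class I molecules show peptides from inside the cell to CD8+ T cells. Proteasomes cut proteins into peptides, and in the immunoproteasome Psmb8, Psmb9 and Psmb10 take the places of the constitutive catalytic subunits Psmb5, Psmb6 and Psmb7. The Tap1 and Tap2 pair carries peptides into the endoplasmic reticulum, where tapasin and chaperones help load them onto a heavy chain bound to B2m. Interferons raise most of these genes, and Nlrc5 is a transcriptional activator of class I promoters. Epithelial cells of the intestine carry class I molecules at their surface.

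The samples held between 22103591 and 30098210 gene-assigned reads, and 14692 genes passed the filter on low counts. The treatment moved most of the transcriptome: edgeR's quasi-likelihood test with Benjamini-Hochberg adjustment at 0.05 called 79.1% of these genes, 40.3% higher and 38.8% lower after Folfiri. The groups did not overlap for 81.4% of tested genes. The median log2 fold change over all tested genes was 0.02, and it was 0.30 when libraries were scaled by total counts alone. Higher genes were 51.0% of the calls with TMM scaling and 63.3% with total counts, where 7322 genes were higher and 4250 lower. Colon epithelial genes were abundant in every sample, in CPM (reads scaled by library size, after TMM normalization). The 12 listed markers summed to 6575 to 7668 CPM in the Control and to 5067 to 5278 CPM in the Folfiri samples.

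Of the 10 members, 8 passed the filter, and B2m, Tap1, Tap2, Tapbp, Psmb8 and Psmb10 were higher after Folfiri. H2-K1 was lower, and H2-D1 was not called. The 7 of 8 called members compare with 79.1% of all tested genes, the 6 higher members with 40.3%, and the 1 lower member with 38.8%. The median log2 fold change of the 8 was 1.09, against 0.02 for all tested genes. A log2 fold change of at least 1 with a call was found for 4 of the 8 (Tap2, Tapbp, Psmb8 and Psmb10), and for 19.5% of all tested genes. Psmb8 passed the filter through its Folfiri samples alone, so its inclusion depended on the group where it was high. Psmb9 and Nlrc5 had too few reads to pass. Of the 8 tested members, 6 were higher in every Folfiri sample than in any Control sample, beside 41.6% of all tested genes, and the groups did not overlap for 7, beside 81.4%. Psmb9 and Nlrc5, outside those shares, also had more reads in every Folfiri sample.

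**Figure D1:**
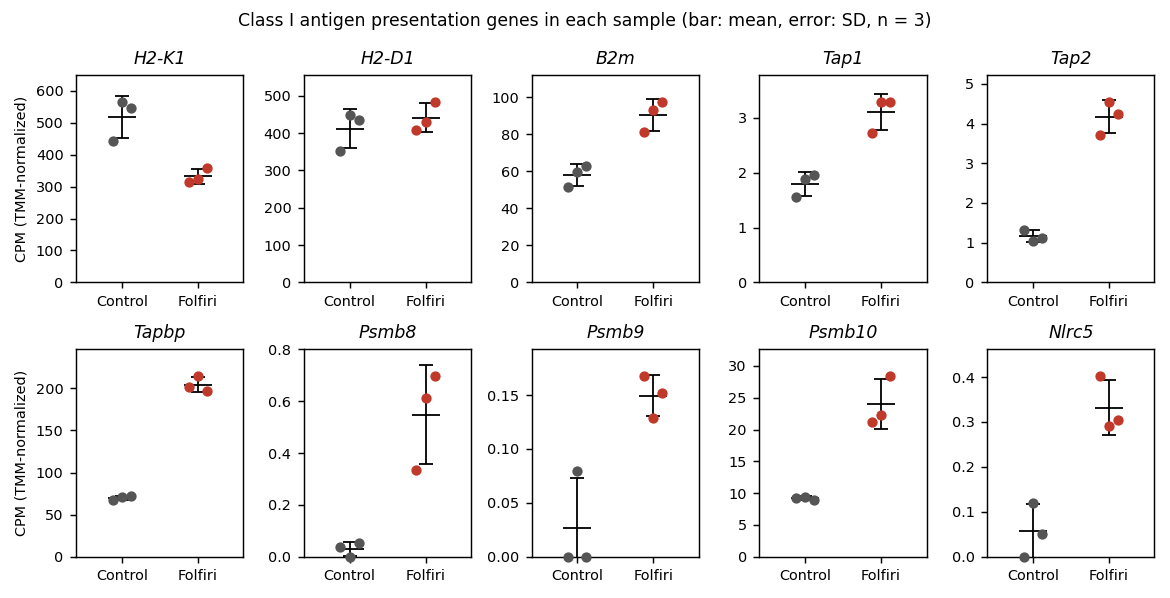
Level of each of the 10 members in each sample, in TMM-normalized CPM on linear axes from 0. Points are samples, long bars are means and error bars are SD (n = 3). H2-K1 is lower in the 3 Folfiri samples, the groups overlap for H2-D1, and the other 8 members are higher in every Folfiri sample.

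The classical heavy chain genes, which encode the peptide-binding chain, did not move together. H2-K1 (ENSMUSG00000061232; GRCm38 chr17:33996017-34000347, minus strand) had 443, 566 and 546 CPM in Control 1 to 3 and 314, 325 and 359 CPM in Folfiri 1 to 3. All 3 Folfiri samples lay below the lowest Control sample. The mean fell from 518 ± 66.0 to 333 ± 23.5 CPM (SD, n = 3), and the log2 fold change was -0.64 (SE 0.10, adjusted p = 0.000176 in edgeR's quasi-likelihood test). With total-count scaling the log2 fold change was -0.36, still past the threshold.

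H2-D1 (ENSMUSG00000073411; GRCm38 chr17:35262730-35267499, plus strand) had 351, 449 and 436 CPM in Control 1 to 3 and 409, 429 and 484 CPM in Folfiri 1 to 3. The groups overlapped, with Control 1 the lowest sample and Folfiri 3 the highest. The means were 412 ± 53.1 and 441 ± 38.8 CPM (SD, n = 3), and the log2 fold change was 0.10 (SE 0.11, adjusted p = 0.413). Total-count scaling called H2-D1 higher, with a log2 fold change of 0.38 (adjusted p = 0.00217), beside the 0.30 by which that scaling placed the median of all genes above 0. Without Control replicate 1 the log2 fold change was -0.0041.

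Within a sample, where library scaling plays no part, H2-D1 and H2-K1 changed places. This ratio was chosen after its values were seen. H2-K1 had more reads than H2-D1 in every Control sample, with log2 ratios of H2-D1 to H2-K1 of -0.33, -0.33 and -0.33. H2-D1 had more in every Folfiri sample, with log2 ratios of 0.38, 0.40 and 0.43. The mean difference was 0.74 on the log2 scale (exact permutation test, two-sided p = 0.1, the smallest that 3 samples against 3 can give). From rlog values, which shrink ratios toward the mean, it was 0.44.

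Heavy chain genes are near-identical in parts, and how reads with several positions were counted is not stated, so reads may have been divided between them. The 20 H2 class I heavy chain genes were therefore also added up. Their summed level was 1104, 1383 and 1345 CPM in Control 1 to 3 and 1006, 1038 and 1153 CPM in Folfiri 1 to 3. The ranges overlapped, since Folfiri 3 lay above Control 1. The summed log2 fold change was -0.26 (SE 0.11, adjusted p = 0.0423 in edgeR's quasi-likelihood test). H2-K1 and H2-D1 made up between 71.9% and 73.4% of this sum.

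B2m (ENSMUSG00000060802; GRCm38 chr2:122147686-122153083, plus strand), the light chain shared by all class I heavy chains, rose. It had 51.5, 59.9 and 62.7 CPM in Control 1 to 3 and 81.0, 93.1 and 97.6 CPM in Folfiri 1 to 3. The lowest Folfiri sample was above the highest Control sample. The log2 fold change was 0.64 (SE 0.10, adjusted p = 0.000110), a rise of 1.56-fold, while H2-K1 was 1.56-fold lower. The summed reads of H2-K1 and H2-D1 alone, per B2m read, were lower in every Folfiri sample. The log2 ratios were 3.95, 4.08 and 3.97 in Control 1 to 3 and 3.16, 3.02 and 3.11 in Folfiri 1 to 3. The difference was -0.90 (exact permutation test, two-sided p = 0.1, the smallest possible), and -0.54 from rlog values.

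The promoters of H2-K1, H2-D1 and B2m are shown because their genes moved differently: H2-K1 fell, H2-D1 was not called and B2m rose. RefSeq start regions (GRCm38.p6, from 250 bases before to 50 after the start) were at hand for 8 of the 10 members, all but Tap2 and Nlrc5. The first set, printed 5′ to 3′ on the gene's strand, holds an NF-kB site and an IRF core in capitals. The IRF core was searched as AANNGAAA and the NF-kB site by its usual consensus, on both strands, and the sites did not overlap in these stretches. The coordinates are chr17:34000429-34000458 (minus strand), chr17:35262923-35262952 (plus strand) and chr2:122147548-122147577 (plus strand).
H2-K1: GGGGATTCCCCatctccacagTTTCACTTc
H2-D1: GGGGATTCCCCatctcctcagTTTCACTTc
B2m: gaAACTGAAAatgGGAAAGTCCCtttgtaa
The H2-K1 and H2-D1 stretches were identical at 29 of 30 bases and differed by A18T, counted from 1 at the first printed base with the H2-K1 base first. In B2m the elements stood in the other order. An IRF core was found in 23.9% of the 32851 RefSeq windows of this length, and in 3 of the 8 members (H2-K1, H2-D1 and B2m). An NF-kB site was found in 8.46% of windows and in the same 3 members. A GAS element, searched as TTCNNNGAA, was found in 8.30% of windows and, among the members, in Psmb8 alone.

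The second set holds the letters of the X2 box (TGACG) and the Y box (ATTGG), parts of the SXY module through which Nlrc5 and the RFX complex act, in capitals. The stretches lie at chr17:34000359-34000388 (minus strand), chr17:35262993-35263022 (plus strand), chr2:122147609-122147638 (plus strand) and, for Tap1, chr17:34187470-34187499 (plus strand).
H2-K1: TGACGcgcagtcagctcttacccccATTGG
H2-D1: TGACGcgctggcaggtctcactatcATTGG
B2m: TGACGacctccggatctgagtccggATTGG
Tap1: TGACGacagagggtcctgccctcaatctgg
In H2-K1, H2-D1 and B2m exactly 20 bases stood between the boxes, while the Tap1 stretch had no Y box letters at that place. This spacing was set after these promoters were read, and 31 of the 32851 windows (0.0944%) held the pair at it on either strand. Singly, TGACG was found in 20.8% of windows and 5 members, and ATTGG in 37.4% of windows and 6 members. These matches describe letters in a window and say nothing of binding.

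The peptide transporter genes were low and rose. Tap1 (ENSMUSG00000037321; GRCm38 chr17:34187553-34197225, plus strand) had 1.55, 1.88 and 1.95 CPM in Control 1 to 3 and 2.72, 3.29 and 3.28 CPM in Folfiri 1 to 3, from 38 to 47 reads per Control sample and 81 to 108 per Folfiri sample. The groups did not overlap. The log2 fold change was 0.80 (SE 0.17, adjusted p = 0.00151 in edgeR's quasi-likelihood test).

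Tap2 (ENSMUSG00000024339; GRCm38 chr17:34203527-34216321, plus strand) had 1.33, 1.04 and 1.13 CPM in Control 1 to 3 and 3.72, 4.55 and 4.25 CPM in Folfiri 1 to 3. Each Folfiri sample lay above every Control sample. Its log2 fold change was 1.83 (SE 0.18, adjusted p = 4.03e-06), which is 3.55-fold. Per kilobase of exon, Tap1 and Tap2 did not differ beyond their spread in the Control samples, at 0.328 ± 0.0394 and 0.309 ± 0.0396 CPM per kb. In the Folfiri samples Tap2 was above Tap1, at 1.10 ± 0.111 against 0.565 ± 0.0599 CPM per kb (SD, n = 3).

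Tapbp (ENSMUSG00000024308; GRCm38 chr17:33915899-33929292, plus strand) encodes tapasin, which bridges the transporter and the empty class I molecule. It had 67.3, 70.7 and 72.3 CPM in Control 1 to 3 and 202, 215 and 197 CPM in Folfiri 1 to 3. Samples within a group were close together, and the groups were far apart. The mean rose from 70.1 ± 2.54 to 205 ± 9.24 CPM, which is 2.92-fold (1.54 on the log2 scale, SE 0.07, adjusted p = 2.18e-08). Among the tested members it had the smallest adjusted p.

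The 3 immunoproteasome genes ranged from nearly unread to moderate. Psmb8 (ENSMUSG00000024338; GRCm38 chr17:34197721-34201454, plus strand), the counterpart of Psmb5, had 1, 0 and 1 reads in Control 1 to 3 and 10, 19 and 23 in Folfiri 1 to 3. The Folfiri to Control ratio of summed reads, scaled by library size, was 20.0, with a 95% counting interval of 5.27 to 170. The edgeR log2 fold change was 4.11 (SE 0.66, adjusted p = 0.000171), and with so few Control reads its size depends on the prior count. The level stayed low, at 0.549 ± 0.190 CPM in the Folfiri samples (SD, n = 3).

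Psmb9 (ENSMUSG00000096727; GRCm38 chr17:34181987-34187764, minus strand), the counterpart of Psmb6, had 0, 2 and 0 reads in Control 1 to 3 and 5, 4 and 5 in Folfiri 1 to 3. The Folfiri to Control ratio of summed reads, scaled by library size, was 5.39 (95% counting interval 1.24 to 48.9). Without the filter on low counts its adjusted p was 0.0554, so it was not called. These intervals cover counting error only.

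Psmb10 (ENSMUSG00000031897; GRCm38 chr8:105935735-105938444, minus strand), the counterpart of Psmb7, was the member of this set with many reads. It had 9.29, 9.44 and 8.90 CPM in Control 1 to 3 and 21.3, 22.4 and 28.4 CPM in Folfiri 1 to 3. The Control samples were nearly equal, and the lowest Folfiri sample was well above them. The log2 fold change was 1.38 (SE 0.12, adjusted p = 2.21e-06), or 2.61-fold.

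Each immunoproteasome gene was set against the constitutive gene whose place it takes. Psmb10 per Psmb7 had log2 ratios of -3.31, -3.46 and -3.46 in Control 1 to 3 and -1.69, -1.70 and -1.45 in Folfiri 1 to 3. The mean difference was 1.79, or 3.47-fold, and 1.05 from rlog values. Psmb8 per Psmb5 differed by 3.05 on the log2 scale with 0.5 added to each count, and by 2.45 without Control replicate 2. In every Folfiri sample both ratios were above every Control sample.

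Psmb9 per Psmb6 differed by 1.95, also with separate groups, by 1.33 with 1 added to each count and by 2.65 without Control replicate 2. For each of the 3 pairs the exact permutation test gave a two-sided p = 0.1, the smallest possible. The rlog values, which shrink genes with few reads strongly, gave 0.35 for Psmb8 per Psmb5 and 0.06 for Psmb9 per Psmb6, where the groups overlapped (exact permutation p = 0.3). The constitutive genes themselves split: Psmb5 was higher (log2 fold change 0.58, SE 0.10, adjusted p = 0.000243), Psmb6 was slightly higher (0.25, SE 0.09, adjusted p = 0.0200), and Psmb7 was lower (-0.42, SE 0.08, adjusted p = 0.000420). With total counts Psmb7 had -0.15 and was not called.

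**Figure D2:**
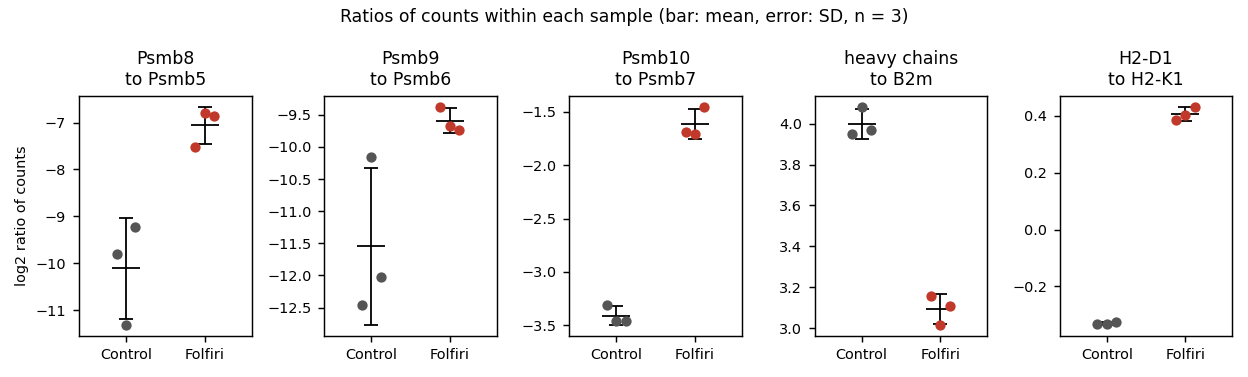
Log2 ratio of counts within each sample. The panels show the 3 immunoproteasome genes over their constitutive counterparts, the sum of H2-K1 and H2-D1 over B2m, and H2-D1 over H2-K1. Points are samples, bars are means and error bars are SD (n = 3). The groups do not overlap in any of the 5 panels, and the axes do not start at 0.

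Nlrc5 (ENSMUSG00000074151; GRCm38 chr8:94434356-94527272, plus strand) had 0, 3 and 1 reads in Control 1 to 3 and 12, 9 and 10 in Folfiri 1 to 3. Every Folfiri sample had more reads than any Control sample. The Folfiri to Control ratio of summed reads, scaled by library size, was 5.97 (95% counting interval 2.11 to 23.3). Without the filter on low counts its log2 fold change was 2.46 (SE 0.69, adjusted p = 0.00236), higher after Folfiri. Even so it stayed at 0.0391 ± 0.00721 CPM per kb of exon in the Folfiri samples, the lowest of the 10 members by mean.

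Ordered by level per kilobase of exon, the Control samples ran from H2-K1 (176 ± 22.5 CPM per kb) and H2-D1 (160 ± 20.6), which did not differ beyond their spread, to B2m (67.5 ± 6.81), Tapbp (19.3 ± 0.699) and Psmb10 (5.40 ± 0.164). Tap1 and Tap2 followed, then Psmb8, Psmb9 and Nlrc5, each at or below 0.00862 CPM per kb and not apart from one another. In the Folfiri samples H2-D1 came first (171 ± 15.1 CPM per kb), and H2-K1 (113 ± 7.99) and B2m (105 ± 9.98) did not differ beyond their spread. Tapbp followed at 56.4 ± 2.55 and Psmb10 at 14.1 ± 2.26 CPM per kb. Psmb8 reached 0.162 ± 0.0561 CPM per kb, above Psmb9 and Nlrc5, which again were not apart. The constitutive Psmb5 and Psmb6 stood at 80.5 ± 10.4 and 68.2 ± 6.64 CPM per kb in the Folfiri samples, far above Psmb8 and Psmb9.

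**Figure D3:**
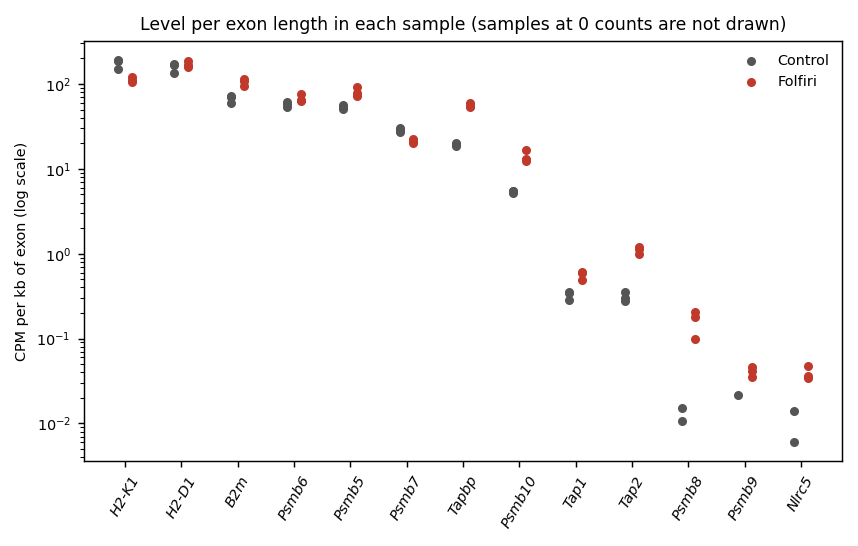
Level per kilobase of exon in each sample (CPM per kb, log axis) for the 10 members and the constitutive Psmb5, Psmb6 and Psmb7, ordered by the Control mean. Points are samples, and samples with 0 reads are not drawn. H2-K1, H2-D1 and B2m stand highest among the members in both groups, and Psmb8, Psmb9 and Nlrc5 lowest, with Psmb8 at 0.162 CPM per kb in the Folfiri samples.

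Some members share exons with other genes, and since the library kit named does not mark strand and no strand setting is stated, their reads cannot be told apart there. Psmb9 and Tap1, which lie head to head on opposite strands, share 212 exonic bases. Tap2 shares 14.1% of its exon length with Gm15821, Psmb8 shares 14.7% with Gm20496 and Tapbp shares 24.9% with Gm19412. Gm19412 had between 0 and 2 reads per sample, beside at least 1406 for Tapbp. Tapbp also shares 149 exonic bases with Zbtb22, a protein-coding gene on the same strand, which had 200 to 548 reads per sample. The same limit holds for other genes named here. Erap1 shares 11.5% of its exon length with Cast, Psmb7 shares 11.8% with Nek6 and H2-DMa shares 10.4% with Brd2. Rfx5 shares 26.8% with B230398E01Rik, Csf1r shares 15.1% with Hmgxb3 and Itgam shares 68.7% with Gm49368. In all, 7 members lie on chromosome 17, where the mouse major histocompatibility complex is, with Psmb10 and Nlrc5 on chromosome 8 and B2m on chromosome 2.

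Of 17 listed partners that load and trim peptides, all tested, 4 were higher and 12 lower, with a median log2 fold change of -0.45 against 0.02 for all genes. For this list and those that follow, the background is the 40.3% of all tested genes called higher and the 38.8% called lower. For counts made with total-count scaling, the background is 7322 of 14692 tested genes higher and 4250 lower. With total counts 5 of the 17 partners were higher and 8 lower. The lectin chaperones calreticulin and calnexin fell, Calr by 0.87 (SE 0.09, adjusted p = 5.38e-06) and Canx by 0.52 (SE 0.08, adjusted p = 0.000148) on the log2 scale. Pdia3, whose product ERp57 pairs with tapasin, had -0.29 (adjusted p = 0.00558), and -0.01 with total counts, where it was not called.

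Erap1, the aminopeptidase that trims peptides in the endoplasmic reticulum, rose from 14.2 ± 2.44 to 38.9 ± 3.33 CPM (log2 fold change 1.45, SE 0.12, adjusted p = 1.43e-06). Tapbpl, which encodes the tapasin relative TAPBPR, rose by 0.81 on the log2 scale (adjusted p = 9.75e-05), and the cytosolic peptidase gene Thop1 rose by the same amount. The largest falls were in the cytosolic aminopeptidase gene Npepps (-1.73), the peptidase gene Nrd1 (-1.68) and the chaperone gene Hspa5 (-1.22).

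Among 10 listed constitutive proteasome and activator genes, 9 were tested, 5 were higher and 2 lower, and the median was 0.25. With total counts 6 were higher and 1 lower, and the median was 0.53. The subunits of the interferon-inducible PA28 activator both rose, Psme1 by 0.32 (SE 0.09, adjusted p = 0.00711) and Psme2 by 1.35 (SE 0.09, adjusted p = 2.09e-07). Psme2 went from 27.2 ± 1.13 to 69.4 ± 6.22 CPM. Of the other activators, Psme3 had 1.01 and Psme4, the PA200 gene, had -0.75, and both were called.

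**Figure D4:**
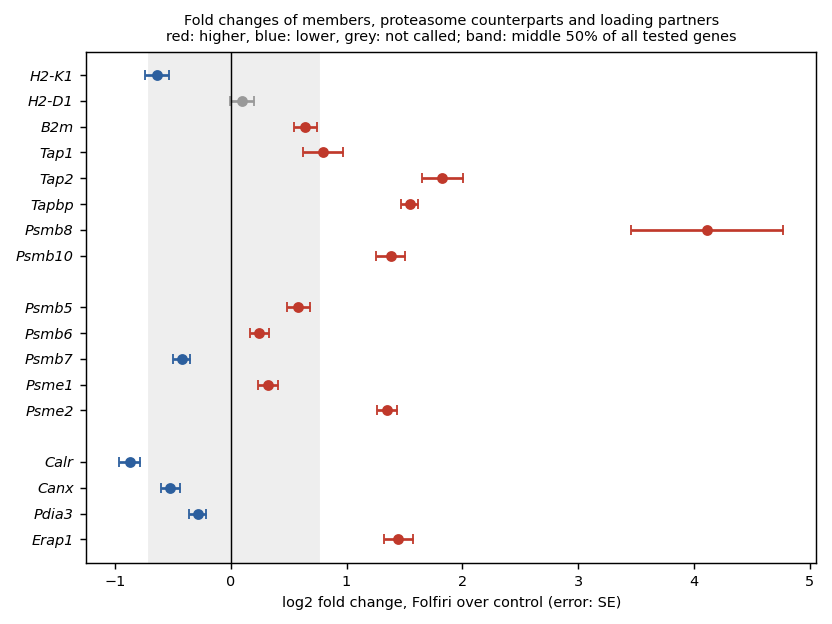
Log2 fold change, Folfiri over control, with SE, for the 8 tested members (top), proteasome counterparts and PA28 subunits (middle) and loading partners (bottom). Red marks genes called higher, blue lower and grey not called, and the band is the interquartile range of all tested genes. Tap2, Tapbp, Psmb8, Psmb10, Psme2 and Erap1 lie to the right of the band, while H2-K1 and Calr are negative.

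The other class I heavy chain genes, nonclassical and class I-like, gave 15 tested genes of 28 listed, 2 higher and 5 lower, with a median of -0.20. This count rested on the scaling and on single samples: 3 were higher and 2 lower with total counts. Without Control replicate 1, 10 were lower. Leaving out Control replicate 2, Control replicate 3, Folfiri replicate 1 or Folfiri replicate 2 gave 3 lower each. H2-Q2 fell by 1.24 on the log2 scale (SE 0.09, adjusted p = 4.48e-07), and with total counts it had -0.97. H2-T23, which encodes Qa-1, had -0.45 (adjusted p = 0.000859) and was not called with total counts, where it had -0.17. H2-M3, which presents formylated peptides, was higher at 0.98 (SE 0.21, adjusted p = 0.00119), and H2-T24 was higher at 1.45 (SE 0.27, adjusted p = 0.000524).

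Of 18 listed factors that act on class I promoters, 17 were tested, 7 were higher and 7 lower, with a median of 0.14. With total counts 10 were higher and 5 lower. Irf1, which binds the interferon response element of class I genes, had 32.9, 40.2 and 42.0 CPM in Control 1 to 3 and 78.9, 78.5 and 86.7 CPM in Folfiri 1 to 3. The groups were far apart, and the log2 fold change was 1.09 (SE 0.10, adjusted p = 2.38e-06).

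The NF-kB subunit gene Rela rose by 1.23 on the log2 scale (adjusted p = 1.85e-07). Rfx5, a subunit of the RFX complex that binds the SXY module, was lower at -0.82 (SE 0.13, adjusted p = 0.000117), and Irf8 at -1.05. The subunits of the Y box factor NF-Y split, with Nfyc at 0.91, Nfya at 0.59 and Nfyb at -1.08, all called. Of the Polycomb complex PRC2, Suz12 was lower at -1.23 (adjusted p = 1.01e-07) and Ezh2 at -0.47, while Eed was higher at 0.61, all called. Ciita, the class II counterpart of Nlrc5, was near 0 in both groups.

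The 6 listed interferon ligand genes were Ifnb1, Ifng, Ifnl2, Ifnl3, Ifne and Ifnk, and no Ifna gene was listed. These were hardly read: 5 had a row, none was tested, and no mean over the 6 samples was above 0.0535 CPM. Of 13 genes for interferon receptors and signalling, all tested, 7 were higher and 5 lower, with a median of 0.23. With total counts 7 were higher and 3 lower. The interferon gamma receptor gene Ifngr1 rose by 1.53 (adjusted p = 1.53e-07) and Irf9 by 1.48 (adjusted p = 9.10e-07) on the log2 scale. Stat2, the partner of Irf9 in the ISGF3 complex, was lower at -0.84 and the feedback inhibitor gene Socs3 at -0.94, while Socs1 was higher at 0.85.

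Of 20 listed interferon-stimulated genes outside class I, 13 were tested, 8 were higher and 2 lower, with a median of 0.84, and with total counts 10 were higher and 1 lower. Gbp2, Gbp3 and Isg15 had fewer than 10 reads in each Control sample and passed the filter through their Folfiri samples, so their presence in this count and median depended on the group where they were high. The guanylate-binding protein gene Gbp2 went from 0.0874 ± 0.0792 to 4.08 ± 0.641 CPM (adjusted p = 4.41e-07), and Gbp3 rose by 3.41 on the log2 scale (adjusted p = 1.93e-07). Isg15 rose by 2.08 (adjusted p = 0.000151). Ido1, the tryptophan-degrading enzyme, fell by 3.88 (SE 0.12, adjusted p = 3.18e-09), from 42.9 ± 4.77 to 2.91 ± 0.306 CPM. Ifih1 was lower at -0.72 and was not called with total counts, and only 1 gene of the list was lower when Control replicate 1 or Folfiri replicate 2 was left out.

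**Figure D5:**
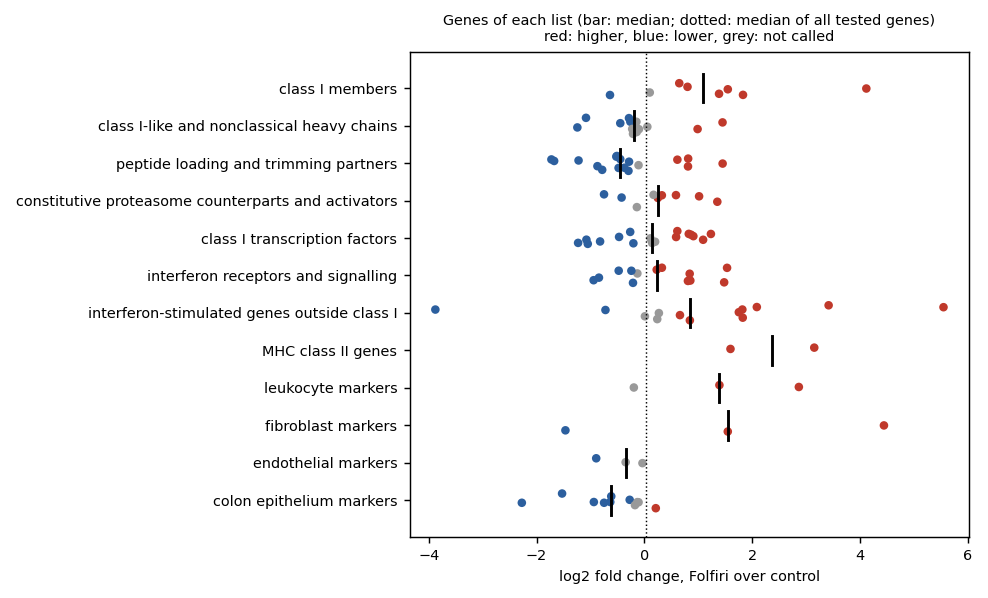
Log2 fold change, Folfiri over control, of every tested gene in each list, by list. Red marks genes called higher, blue lower and grey not called, black bars are medians, and the dotted line is the median of all 14692 tested genes. The class I members have a median of 1.09 and the loading and trimming partners of -0.45.

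Other cell types carry class I and class II genes too, so their markers are given beside the results. In bulk samples, fewer cells of a type and less RNA per cell cannot be told apart. Of 12 listed leukocyte markers, 3 passed the filter, 2 were higher and none lower, and 1 was lower when Control replicate 1 was left out. Both higher markers, Ptprc and Fcer1g, passed through their Folfiri samples, so the count of higher markers depended on the group where they were high. Ptprc, the pan-leukocyte gene, went from 0.396 ± 0.0625 to 1.06 ± 0.103 CPM. The summed level of the list was 21.4 to 26.2 CPM in the Control and 22.4 to 23.2 CPM in the Folfiri samples, nearly all of it Cd68. Without Cd68 it was 0.680 to 0.874 CPM and 2.09 to 2.48 CPM. Fcer1g, the other marker that was higher, had 0, 1 and 4 reads in Control 1 to 3 and 19, 18 and 13 in Folfiri 1 to 3. Itgam, Csf1r and Cd52 had 0 reads in every Control sample and 1 to 3 in every Folfiri sample. Lyz2 and Tyrobp had at most 2 reads in any sample.

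Of 8 fibroblast markers, 3 were tested, 2 were higher and 1 lower, each having passed the filter through the group where it was high, and the sum was 1.08 to 1.44 CPM in the Control and 2.06 to 2.45 CPM in the Folfiri samples. Of 6 endothelial markers, 3 were tested, 1 was lower and none higher, and 2 were lower when Control replicate 2 or Control replicate 3 was left out. Their sum was 79.2 to 131 CPM and 69.3 to 79.5 CPM, nearly all of it Cdh5 and Egfl7. Of 12 colon epithelium markers, 11 were tested, 1 was higher and 7 lower, with a median of -0.62. The 1 higher call was lost when Control replicate 2, Control replicate 3, Folfiri replicate 1 or Folfiri replicate 2 was left out. Their part in the class I results was not tested.

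Of 10 class II genes, 2 were tested and both were higher, of which H2-DMa, with 14, 10 and 4 reads in Control 1 to 3, passed the filter through its Folfiri samples. Cd74, the invariant chain, went from 0.590 ± 0.0691 to 5.19 ± 0.726 CPM (log2 fold change 3.15, SE 0.21, adjusted p = 2.35e-07), and H2-DMa, a peptide exchange subunit, rose by 1.59. The class II chain genes H2-Aa, H2-Ab1 and H2-Eb1 were near 0 in both groups.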

How the data were processed

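Poly(A) RNA of 6 organoid samples was sequenced. Per the paper's methods the authors aligned reads with STAR (version 2.5.2 in the submitters' processing notes) to the mouse genome (mm10/GRCm38, GENCODE vM25) and counted reads per gene with Rsubread; the deposited counts are raw and not normalized. The treatment of reads with several positions is not given in the sources used here. Strain is not given in the labels, and one figure legend of the study gives another exposure time than the labels, which were followed.

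Gene symbols, coordinates and exon lengths (union of exons) came from GENCODE vM21 on the same build, which held 24168 of 24190 identifiers. Counts were filtered (filterByExpr defaults), TMM-normalized and tested in edgeR 4.0.16 (R 4.3.3) with the quasi-likelihood test, Folfiri against control over all 6 samples, with Benjamini-Hochberg adjustment over all tested genes and a threshold of 0.05. CPM were computed on TMM-scaled library sizes. DESeq2 1.42.0 was an alternative and gave rlog values. Ratios within a sample used counts plus 0.5 and a two-sided exact permutation test. Counting intervals were 95% exact conditional intervals. The scripts were tested on simulated data. Depth was 22103591 to 30098210 reads per sample.

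Members and lists were chosen with earlier results of these data known. Named genes were all members, Psmb5, Psmb6, Psmb7, Psme1, Psme2, Calr, Canx, Pdia3, Erap1, Irf1 and Rfx5, and from every other list at most 4 called genes per direction with the largest log2 fold change, groups apart and at least 1 CPM on average in one group. Genes named for overlaps, as markers, as near 0 or as further subunits of NF-Y and PRC2 lie outside this rule, their values being known when they were picked. Some items that the rule or the labels name are not reported here. The alternatives tried were other scalings, other filters, DESeq2, the replicate block, leaving out each sample, summed heavy chains and other ratio scales.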

Additional observations from a re-analysis of the deposited data

How the results depend on the processing

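The counts of members called were 6 higher and 1 lower under DESeq2 size factors, upper quartile scaling, the DESeq2 Wald test and each leave-one-out fit. They were 7 higher and 1 lower with total counts (H2-D1 added) and without a filter (Nlrc5 added), and 5 higher and 1 lower with a mean of at least 1 CPM, where Psmb8 was not tested. B2m, Tap1, Tap2, Tapbp, Psmb8 and Psmb10 were called higher and H2-K1 lower in each fit in which they were tested. The sum of the heavy chains, which holds H2-K1 too, had -0.26. H2-D1 alone had 0.10 and ranged from -0.0041 to 0.16 when 1 sample was left out. Among the scalings it was called with total counts alone (0.38). The member counts and the counts over all genes stayed within 1.5 times under each alternative. The ratios kept their direction, but their p cannot pass 0.05 in this design, and from rlog values Psmb8 per Psmb5 was 0.35 and Psmb9 per Psmb6 was 0.06. Of the values of single genes and lists, 383 kept their direction and side of the threshold or, for counts, stayed within 1.5 times, while 31 counts of listed genes and 3 values given above (the heavy chain sum set beside H2-D1, and H2-D1 without Control replicate 1 and with total counts) did not.

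Same-numbered samples did not deviate together (correlations of 0.04, -0.19 and 0.04). Differently numbered samples had correlations between -0.15 and 0.20. With 3 samples per group, this check cannot tell whether the numbers pair the samples. With the replicate block, 5878 genes were higher and 5621 lower, against 5926 and 5697 without it, and 6 members were higher and 1 lower. In the replicate block the ratios kept their size, with a smallest possible p of 0.25.

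Control 1 and Folfiri 3 differed most from the other samples of their groups. When 1 sample was left out, Psmb8 per Psmb5 ranged from 2.45 to 3.497 and Psmb9 per Psmb6 from 1.5 to 2.65, and 0 to 5 reads per sample limit Psmb9, 0 to 12 limit Nlrc5 and 0 to 23 limit Psmb8.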
